A study of Mus musculus with 8 samples.

Results

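The imprinted domain of distal mouse chromosome 7 was described here through 6 genes, H19, Igf2, Mrpl23, Cdkn1c, Tnnt3 and Lsp1, of 21889 genes considered in the series (RefSeq protein-coding genes plus the non-coding H19 and Meg3). The genes were selected on the deposited peaks themselves, because the length under peaks beside Mrpl23 and H19 was shorter after injury, so every difference between conditions at these genes is a description and carries no test. The interval ran from 50 kb before Lsp1 to 50 kb past Cdkn1c, chr7:142408223-143511059 in mm10. The study profiled histone H3 lysine 27 acetylation (H3K27ac), a mark of active promoters and enhancers, by ChIPmentation, in which antibody-bound chromatin is tagmented to make the library. Activated satellite cells (ASC) were muscle stem cells of C57BL/6 mice taken from skeletal muscle 2.5 days after injury with BaCl2. Freshly isolated satellite cells (FISC) were muscle stem cells of the same strain and tissue with no treatment. Each condition had 2 H3K27ac libraries, and the labels do not say whether these came from separate animals, so the spread between them may be technical. The labels give neither the age of the mice nor the sorting gate, and a cell population isolated from injured muscle can hold other cells.

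The lists held 50154 and 54700 peaks in the ASC libraries, against 45014 and 43092 in the FISC libraries. They covered 49.2 and 57.7 Mb in ASC, against 34.4 and 33.7 Mb in FISC. Peak lists carry no read counts, so sequencing depth is unknown. All 10 satellite cell markers, among them Pax7 and Myf5, had a peak within 2 kb of their start sites in at least 1 library, with 25.8 and 27.1 kb in all in ASC and 23.8 and 22.3 kb in FISC. The markers did not share an order. By limma, 3 were called higher in ASC (Vcam1, Itga7 and Fgfr4) and 1 lower, where 26.0% of all genes were called higher and 3.54% lower. The 1 called lower, Calcr, had 0 kb in both ASC libraries, against 1.31 and 0.947 kb in FISC (limma adjusted p = 0.00841). Pax7 and Chodl were also lower in both ASC libraries, but were not called. The leukocyte genes Ptprc, Adgre1, Itgam and Cd3d had none in any library, and neither had the endothelial genes Pecam1 and Cdh5 or the fibroblast genes Pdgfra, Dcn, Lum and Col1a1. Other markers of these cells were covered. The myeloid gene Cd14 had a window of 1.46 and 1.48 kb in ASC, against 0.586 and 0.704 kb in FISC (limma adjusted p = 0.0089), and Cd68, Spi1 and Cd79a had peaks in all 4 libraries. Csf1r and Cd3e had windows of 0.347 and 0.493 kb, in ASC replicate 2 only. The stromal gene Ly6a had 1.44 and 2.17 kb in ASC, against 0 kb in both FISC libraries (limma adjusted p = 0.0101), and the collagen gene Col3a1 had 2.94 and 2.81 kb in ASC, against 2.20 and 2.51 kb in FISC (limma adjusted p = 0.0594).

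In the mouse, H19 is a long non-coding RNA expressed from the maternal chromosome, and Igf2, which encodes a fetal growth factor, is expressed from the paternal one. Both draw on shared enhancers downstream of H19, and those that act in skeletal muscle lie on the Mrpl23 side, where the non-coding transcript Nctc1 runs through them. Cdkn1c encodes a maternally expressed inhibitor of cyclin-dependent kinases and belongs to the neighbouring domain governed by the antisense RNA Kcnq1ot1. H19 and Cdkn1c have been studied in the quiescence and differentiation of muscle progenitors. Peak lists do not separate the parental alleles.

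The annotated start of Nctc1 lay at the edge of the acetylation that was shorter in ASC. That of Mrpl23 was under a peak in every library. Syt8, a synaptotagmin gene upstream of Lsp1, has several annotated starts, and the first, printed below, was under a peak in ASC only. These 3 promoter windows show a loss, a promoter reached by a peak in every library, and a gain. Each runs from 250 bases before to 50 after an annotated start (RefSeq, GRCm38.p6, the assembly of mm10), and is printed 5′ to 3′. Capitals mark an E-box (CANNTG, the motif of basic helix-loop-helix factors) in Nctc1, GC boxes (GGGCGG) in Mrpl23 and an AP-1 motif (TGANTCA) in Syt8, all searched on both strands.
Nctc1 promoter, chr7:142558549-142558848, minus strand: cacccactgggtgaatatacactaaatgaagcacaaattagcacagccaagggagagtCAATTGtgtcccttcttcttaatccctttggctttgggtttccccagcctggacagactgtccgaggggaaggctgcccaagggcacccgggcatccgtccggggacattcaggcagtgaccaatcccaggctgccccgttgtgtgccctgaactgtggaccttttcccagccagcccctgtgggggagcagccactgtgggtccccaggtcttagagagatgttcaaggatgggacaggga
Mrpl23 promoter, chr7:142532782-142533081, plus strand: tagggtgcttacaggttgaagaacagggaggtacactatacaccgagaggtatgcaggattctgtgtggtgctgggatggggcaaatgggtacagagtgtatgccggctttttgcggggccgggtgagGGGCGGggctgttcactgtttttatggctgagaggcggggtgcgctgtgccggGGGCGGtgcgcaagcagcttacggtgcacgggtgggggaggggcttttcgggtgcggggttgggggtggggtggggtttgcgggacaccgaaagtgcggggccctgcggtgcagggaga
Syt8 promoter, chr7:142434600-142434899, plus strand: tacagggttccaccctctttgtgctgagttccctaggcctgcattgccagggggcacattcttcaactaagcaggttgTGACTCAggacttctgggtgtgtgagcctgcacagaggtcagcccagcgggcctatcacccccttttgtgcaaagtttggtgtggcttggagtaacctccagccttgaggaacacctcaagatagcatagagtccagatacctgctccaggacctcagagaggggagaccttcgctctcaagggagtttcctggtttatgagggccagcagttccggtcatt

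The Nctc1 window had 0 of its 300 bases under a peak in both ASC libraries, against 300 and 300 in FISC. It held 1 E-box and 5 CpG dinucleotides, and 57.3% of its bases were G or C. The Mrpl23 window had 146 and 300 bases under a peak in ASC, against 86 and 52 in FISC. Both ASC libraries were above both FISC libraries, and the window held 2 GC boxes, 1 E-box and 18 CpG dinucleotides. The Syt8 window had 300 and 300 bases under a peak in ASC, against 0 in both FISC libraries, and held 1 AP-1 motif and 3 CpG dinucleotides. Another Syt8 window, chr7:142434727-142435026, was also covered in ASC only, but held 0 AP-1 motifs and 2 E-boxes. A further one, chr7:142436584-142436883, had no peak in any library. Of 32817 mouse promoter windows of this length, 72.3% held CANNTG, 35.6% held GGGCGG and 7.81% held TGANTCA. The median promoter window held 7 CpG dinucleotides. All 4 Igf2 promoter windows were without a peak in every library. A motif match is a description of the letters and not a bound site.

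Between Mrpl23 and H19, 1.62 and 2.52 kb lay under peaks in the ASC libraries, against 11.695 and 11.997 kb in the FISC libraries. The conditions did not overlap, and the means were 2.07 ± 0.634 kb in ASC and 11.8 ± 0.214 kb in FISC (SD, n = 2 each), a difference of -9.78 kb. Most of this length was in Nctc1 itself, a gene of 14.0 kb at chr7:142544609-142558598, which had 1.62 and 2.52 kb under peaks in ASC and 9.50 and 9.20 kb in FISC. Peaks thus covered 11.6% and 18.0% of Nctc1 in ASC, against 67.9% and 65.7% in FISC. With bulk cells, a mark carried by fewer cells of a type and less of the mark per cell cannot be told apart. In FISC replicate 2 a single peak of 9716 bases, chr7:142549667-142559382, ran from just outside the start of Nctc1 deep into the gene. It was the 5th widest of the 43092 peaks in that library. FISC replicate 1 had 6 peaks across the same ground.

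Both ASC libraries kept 1 part of this territory in their full lists. The ASC peak was chr7:142550385-142552004 in replicate 1 and chr7:142549874-142552115 in replicate 2, with deposited fold enrichments of 9.26 and 9.06. A short second peak of 274 bases followed in ASC replicate 2. With lists cut to equal covered length, ASC replicate 2 had 0 kb between Mrpl23 and H19, against 1.62 kb in ASC replicate 1. Of the 1.62 kb covered in both ASC libraries between Mrpl23 and H19, 100% was also covered in both FISC libraries, whereas the bases covered in all 4 libraries made up 15.4% of the 10.5 kb covered in both FISC libraries. The kept ASC peaks had their summits at -27.1 and -26.5 kb from the H19 start site (negative toward Mrpl23), deep in Nctc1. The FISC peaks of highest fold in the stretch, with 10.5 and 11.9, had their summits at -20.3 and -19.8 kb, close to the start of Nctc1, where no ASC peak was listed. These folds are the authors' values, each relative to its own library, and describe peaks only within a list.

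**Figure D1:**
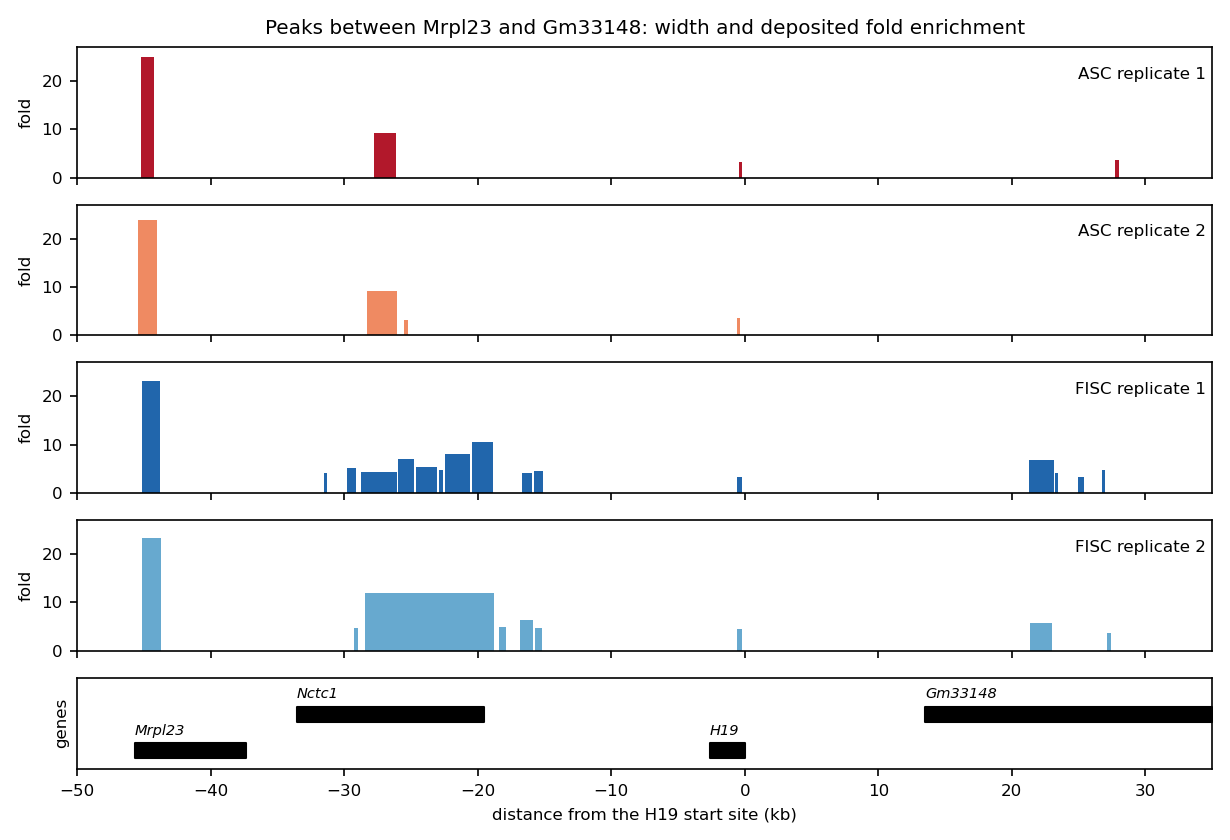
Peaks from Mrpl23 to the non-coding gene Gm33148 in each library, with distance from the H19 start site in kb on the horizontal axis (negative toward Mrpl23) and the deposited fold enrichment of each peak on the vertical axis; bar width is peak width. The Mrpl23 peak is listed in all 4 libraries, while Nctc1 holds 1 or 2 peaks in ASC and 2 or 8 in FISC.

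Nearer to H19, the 16.9 kb from the start of Nctc1 to the end of H19 had no peak in either ASC library, against 2.20 and 2.80 kb under peaks in FISC. The regions chr7:142561330-142562305 and chr7:142562332-142563032 had a peak in both FISC libraries. On the other side, the stretch from H19 to Igf2 had 0.331 and 0 kb in ASC, against 3.06 and 2.09 kb in FISC. Most of it lay in Gm33148, a non-coding gene, where chr7:142599462-142601300 had no peak in ASC and 1.84 and 1.60 kb under a peak in the FISC libraries. Acetylation listed only in FISC was thus present on both flanks of H19, and none of it reached Igf2. The peaks nearest to Igf2 were short, chr7:142646990-142647264 in FISC replicate 1 and chr7:142646477-142646680 in FISC replicate 2. Beyond Igf2, chr7:143099050-143099775 and chr7:143408967-143409390 also had a peak in both FISC libraries and in no ASC library.

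At the H19 gene a small peak was listed in all 4 libraries, with 0.231 and 0.215 kb in ASC and 0.421 and 0.397 kb in FISC. Its fold enrichments of 3.31 and 3.63 in ASC and 3.33 and 4.45 in FISC were low in every library. H19 also hosts Mir675, and no peak reached the microRNA itself. Igf2 had no peak over its gene or within 2 kb of it in any library, nor did Ins2, the insulin gene next to it, or Th, the tyrosine hydroxylase gene. No listed peak does not mean that there was no signal.

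Peaks were assigned to genes by 2 measures, both in kb. Window breadth is the length under peaks within 2 kb of the start site, taken as the gene end with more peak coverage. Distal breadth is the length beyond 2 kb of every start site so taken, within 50 kb and nearest to the gene. Only protein-coding genes, H19 and Meg3 with a covered end have such a start site. Acetylation at the start of Nctc1, which is none of these, therefore counts in the distal breadth of H19. H19 had a distal breadth of 0.331 and 0 kb in ASC, against 8.01 and 7.98 kb in FISC. Mrpl23, which encodes a protein of the large mitochondrial ribosomal subunit, had 1.62 and 2.52 kb in ASC, against 6.46 and 5.90 kb in FISC. For both genes the ASC values were below both FISC values. The ground between them is divided at its midpoint, so these are shares of one territory and not 2 observations. Of the 4 members in the distal fit (H19, Mrpl23, Lsp1 and Cdkn1c), these 2 were past the limma threshold of 0.05 in the lower direction and 0 in the higher one, where 9.82% of all 7403 genes in that fit were called lower and 44.2% higher. These calls repeat the values that chose the genes and are not a test of them. The Mrpl23 difference of -4.12 kb was -2.62 kb with peaks of at least 5-fold enrichment and -1.57 kb with a distal limit of 20 kb, both short of that threshold.

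The start of Mrpl23 kept a peak in every library. It spanned 0.939 and 1.47 kb in ASC, against 1.36 and 1.42 kb in FISC, and the conditions overlapped. The deposited fold of this peak exceeded that of 92.3% and 92.6% of the peaks in the ASC lists and of 99.0% in each FISC list. Of distal breadths over the 4 libraries, those of Sptbn1, Mrc2 and Rhoh were nearest to that of Mrpl23, at Euclidean distances of 0.493, 0.633 and 0.681 kb. The distal breadths nearest to that of H19 were those of Ctdspl, Timm22 and Tmem241, at 1.39, 1.51 and 1.98 kb.

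Tnnt3, which encodes the fast skeletal form of troponin T, went the other way. A region at its start, chr7:142498516-142500887, had peaks of up to 11.7 and 16.1-fold enrichment in ASC and none in FISC. Window breadth was 2.03 and 2.32 kb in ASC, against 0 and 0.061 kb in FISC, with means of 2.17 ± 0.204 kb in ASC and 0.0305 ± 0.0431 kb in FISC (SD, n = 2 each). Both ASC libraries were above both FISC libraries. Of the 5 members in the window fit, Tnnt3 was the 1 called higher by limma and 0 were called lower, where 26.0% of 12907 genes were called higher and 3.54% lower. Divided by the total covered length of each library, Lsp1 (-0.94 kb), Mrpl23 (-0.81 kb) and H19 (-0.34 kb) were also called lower. In that scaling 5073 of all 12907 genes were called lower and 1114 higher, with a median difference of -0.352 kb. The member calls come from the contrast that chose the genes and nothing is read from them. The non-coding gene Prr33 overlaps this region. Over 6 markers of mature muscle fibres, windows summed to 5.46 and 6.78 kb in ASC and 2.99 and 3.40 kb in FISC, with a median difference of -0.445 kb over those in the fit. The titin gene Ttn had 3.53 and 3.71 kb of this in ASC and 0 kb in both FISC libraries and was called higher, whereas the myoglobin gene Mb, with 0.200 and 0.468 kb in ASC and 0.765 and 1.07 kb in FISC, was called lower. The myosin gene Myh1 had 1.74 and 1.93 kb in ASC and 2.23 and 2.33 kb in FISC, and Ckm and Myh4 had no peak near their start sites in any library. The part of fibre chromatin in the Tnnt3 result was not tested.

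Lsp1, which encodes an actin-binding protein named for leukocytes, held the longest acetylation of the 6 genes. Its body of 36.6 kb had 13.2 and 14.9 kb under peaks in ASC, against 15.2 and 13.8 kb in FISC, and the conditions overlapped. Of the bases covered in both libraries of a condition, those covered in all 4 libraries made up 76.3% of the ASC and 77.0% of the FISC length. By the window measure Lsp1 had 0 and 0.200 kb in ASC, against 0.431 and 1.15 kb in FISC, which did not overlap, but the gene end used there lies away from this covered stretch. There were 5 regions of Lsp1 with a peak in all 4 libraries. In each list the Lsp1 peak of highest fold lay in chr7:142480733-142484059, which spanned 2.82 and 3.05 kb in ASC and 3.32 and 2.90 kb in FISC. The region chr7:142486459-142489366 differed in length, with 2.15 and 2.56 kb in ASC, against 0 and 0.467 kb in FISC. Distal breadths of Cav1, Tmem120a and Id3 were nearest to that of Lsp1, at 2.12, 2.33 and 2.64 kb. Of 11 leukocyte markers, 6 had a covered window in some library, with a sum of 5.78 and 7.59 kb in ASC and 3.95 and 3.87 kb in FISC. Their part in the Lsp1 values was not tested.

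**Figure D2:**
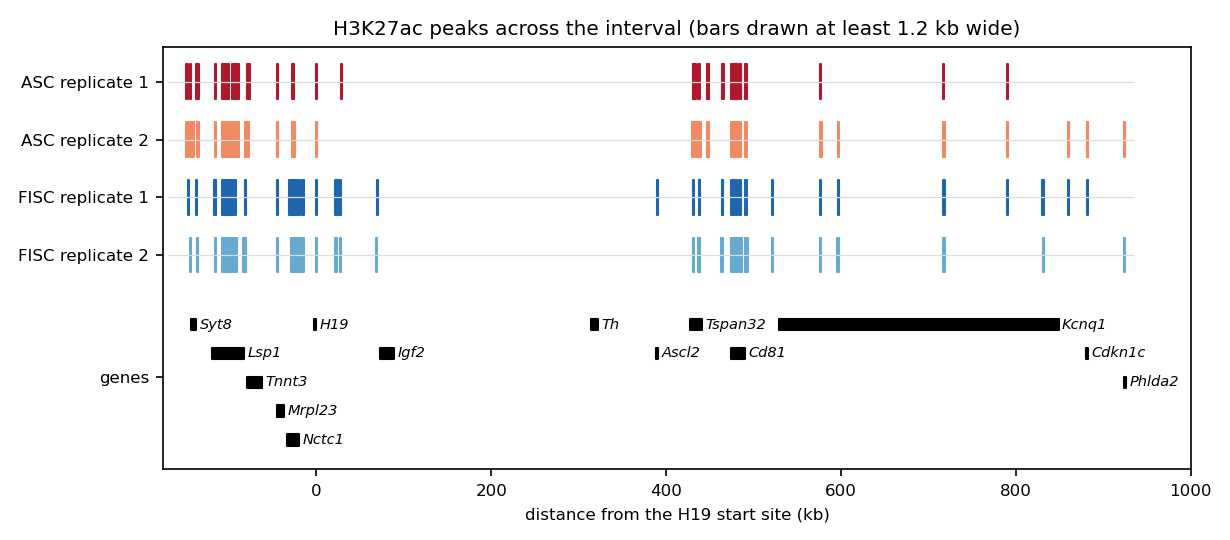
Peaks of each library across the interval, with distance from the H19 start site in kb on the horizontal axis, ASC libraries above FISC libraries and selected genes below; bars are drawn no narrower than a fixed minimum. Coverage concentrates at Syt8 to H19 and at Tspan32 to Cd81, and the ground between Igf2 and Tspan32 holds only 1 peak, at Ascl2 in FISC replicate 1.

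Cdkn1c, which encodes p57, had few and short peaks. Its gene held 0 and 0.467 kb in ASC, against 0.763 and 0 kb in FISC, so each condition had 1 library with a peak and 1 without. Fold enrichment there reached 3.37 in ASC replicate 2 and 4.04 in FISC replicate 1. Its distal breadth was 0 and 0.200 kb in ASC, against 0.769 and 0.321 kb in FISC, which did not overlap and was not called by limma. Phlda2, a maternally expressed growth gene beyond Cdkn1c, had 0 and 0.242 kb in ASC, against 0 and 0.387 kb in FISC. No peak was listed at the transporter gene Slc22a18.

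Between Igf2 and Cdkn1c, 16.9 and 24.4 kb lay under peaks in ASC, against 14.4 and 14.9 kb in FISC. Both ASC libraries were above both FISC libraries. The whole of chromosome 7 had the same order, with a ratio of ASC to FISC of 1.44, so this order was not particular to the stretch. The tetraspanin gene Tspan32, with 2 kb on each side, had 3.50 and 6.66 kb in ASC, against 1.32 and 1.60 kb in FISC. Its neighbour Cd81, a widely expressed tetraspanin, had 8.41 and 11.1 kb in ASC, against 7.13 and 7.13 kb in FISC. The start region of Kcnq1ot1, inside the potassium channel gene Kcnq1, had a peak in all 4 libraries of 1.58 and 2.32 kb in ASC, against 1.39 and 1.56 kb in FISC. Kcnq1 as a whole had 2.87 and 4.40 kb in ASC, against 3.228 and 2.995 kb in FISC, which overlapped, as did Tssc4, with 2.29 and 2.58 kb in ASC and 1.80 and 2.32 kb in FISC. At the far side of the interval, the 50 kb before Lsp1 had 5.07 and 5.81 kb in ASC, against 0.564 and 0.627 kb in FISC. That flank holds Syt8, with 3.06 and 3.24 kb in ASC and 0.364 and 0.627 kb in FISC, and Tnni2, the gene of fast skeletal troponin I, with 1.81 and 1.13 kb in ASC and 0.364 and 0.382 kb in FISC.

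**Figure D3:**
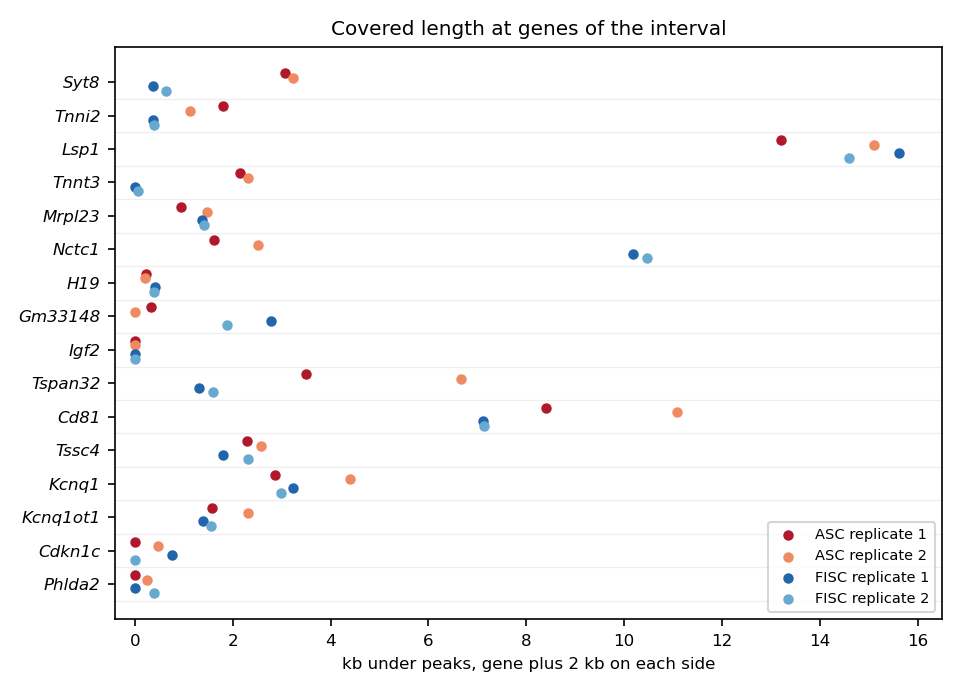
Length under peaks over each gene and 2 kb on either side, in kb, with 1 point per library and ASC above FISC within each gene. Nctc1 and Gm33148 are lower in both ASC libraries, Syt8, Tnnt3 and Tspan32 are higher, Lsp1 and Mrpl23 overlap, and Igf2 is at 0 throughout.

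Of the 17 protein-coding genes in the interval, 4 had no peak within 2 kb in any library. Of the 13 others, 5 had more length under peaks in both ASC libraries than in either FISC library, 0 had less and 8 overlapped. Across all genes with coverage, 62.1% had more and 11.5% had less. Of the 6 members, Tnnt3 had more, H19 had less, Igf2 had none and 3 overlapped.

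Gains and losses left the covered length of the interval nearly level. It was 40.5 and 52.6 kb in ASC, against 47.9 and 46.5 kb in FISC, with means of 46.5 ± 8.56 kb and 47.2 ± 1.02 kb (SD, n = 2 each). The ratio of ASC to FISC was 0.986 here, against 1.44 for chromosome 7 and 1.57 for the genome. The ASC libraries lay on both sides of the FISC libraries: without ASC replicate 1 the difference was 5.39 kb, and without ASC replicate 2 it was -6.71 kb. The interval made up 0.0824% and 0.0911% of the covered genome in ASC, against 0.139% and 0.138% in FISC. Merging the 4 lists gave 66 regions, of which 6 had a peak in both ASC libraries and no FISC library, 7 had one in both FISC libraries and no ASC library, and 17 had one in all 4. Across the genome, 19.9% of 72585 regions were of the first kind and 7.30% of the second. Of the 7 regions of the second kind, 3 lay between Mrpl23 and H19, 1 between H19 and Igf2, 1 in Lsp1 and 2 between Igf2 and Cdkn1c.

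**Figure D4:**
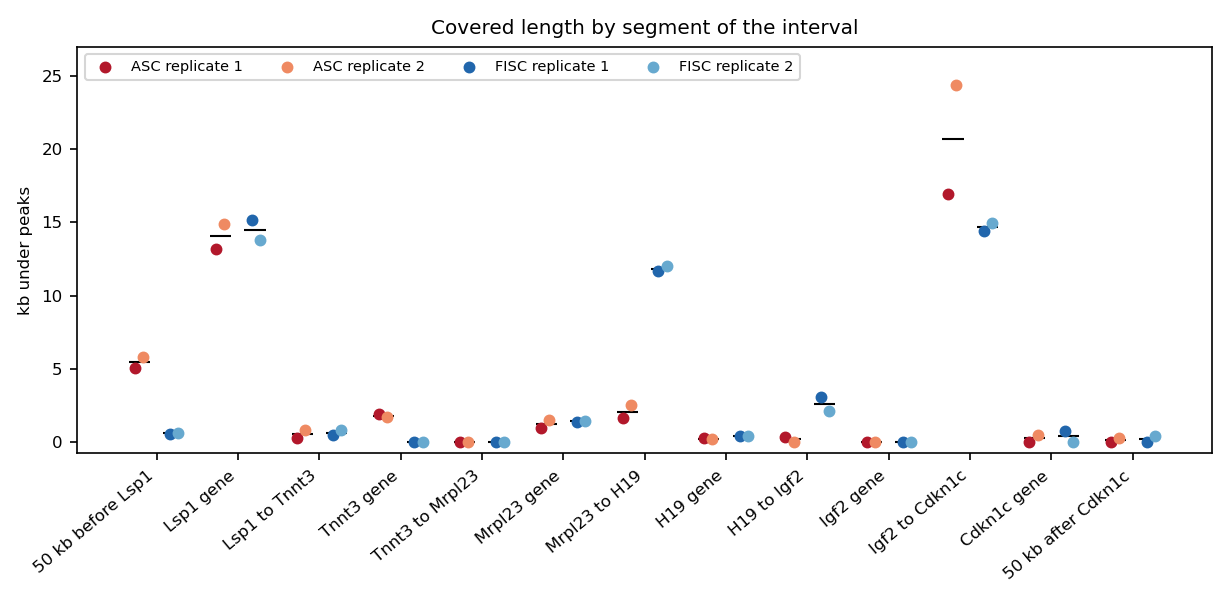
Length under peaks in kb for each segment of the interval in genome order, with 1 point per library, a bar at the mean and ASC to the left of FISC. The Mrpl23 to H19 segment is at 1.62 and 2.52 kb in ASC and at 11.695 and 11.997 kb in FISC, and the 50 kb before Lsp1 show the opposite order.

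The losses beside H19 were set against other gene groups. Smooth muscle and pericyte markers had windows of 4.65 and 5.31 kb in all in ASC, against 6.72 and 6.01 kb in FISC. Of the 4 in the fit, 2 were called lower, Cspg4 and Pdgfrb, where 3.54% of all genes were called lower. Rgs5 had no peak near its start site in any library. Cspg4 had 0.100 ± 0.141 kb in ASC, against 0.607 ± 0.0198 kb in FISC (limma adjusted p = 0.0241), and Pdgfrb had 0.138 ± 0.194 kb in ASC, against 0.913 ± 0.0233 kb in FISC (limma adjusted p = 0.0135). The summed distal breadths of these markers had the opposite order, with 15.9 and 19.5 kb in all in ASC and 11.02 and 10.9 kb in FISC. Of the 4 in the distal fit, Cspg4 and Acta2 were called higher and Myh11 lower, where 44.2% of all genes were called higher and 9.82% lower. Myh11 had 0 kb in both ASC libraries, against 0.456 and 0.538 kb in FISC. Endothelial markers had windows of 1.22 and 1.79 kb in all in ASC, against 2.10 and 2.56 kb in FISC, with 0 of 2 called. Their distal breadths had the opposite order, with 9.04 and 11.9 kb in all in ASC and 3.27 and 3.36 kb in FISC. Of the 3 in the distal fit, 2 were called higher, where 44.2% of all genes were called higher. Over the 6 fibroblast and stromal markers, windows summed to 4.38 and 4.98 kb in ASC and 2.20 and 2.51 kb in FISC. Their distal breadths had the opposite order, with 4.43 and 5.77 kb in all in ASC and 6.30 and 7.19 kb in FISC. Of the 2 in the distal fit, Ly6a was called higher and Col3a1 lower, where 44.2% of all genes were called higher and 9.82% lower. The part of these cell types in the lower territory at Nctc1 was not tested.

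Of 22 imprinted genes elsewhere in the genome, 14 entered the window fit, 7 were called higher in ASC and 0 lower, where 26.0% of all genes were called higher, with a median difference of 0.347 kb, against 0.279 kb over all genes. Zdbf2 rose to a window of 2.21 ± 0.198 kb in ASC, against 0.235 ± 0.332 kb in FISC (limma adjusted p = 0.00518). Peg3, a paternally expressed zinc finger gene, rose to 3.65 ± 0.494 kb in ASC, against 2.07 ± 0.0573 kb in FISC (limma adjusted p = 0.0134), and Usp29 shares its start region. Sgce and Peg10, which also share a start region, rose to 1.89 ± 0.192 kb in ASC, against 0.531 ± 0.0346 kb in FISC (limma adjusted p = 0.00502). In the distal fit 5 of 10 were called higher and 0 lower, where 44.2% of all genes were called higher, with Asb4 at 9.59 ± 1.29 kb in ASC and 1.01 ± 0.110 kb in FISC (limma adjusted p = 0.00404). Usp29 followed, at 3.63 ± 0.823 kb in ASC and 0.760 ± 0.0304 kb in FISC (limma adjusted p = 0.0111). Grb10, an adaptor that restrains growth, had 0.941 ± 0.199 kb in ASC and 0.180 ± 0.254 kb in FISC (limma adjusted p = 0.0318), and Zdbf2 had 0.898 ± 0.170 kb in ASC and 0.228 ± 0.0148 kb in FISC (limma adjusted p = 0.0175). Meg3 and Dlk1 were chosen for mention after their values were seen. Meg3, a maternally expressed long non-coding RNA like H19, had a window of 0 and 0 kb in ASC, against 1.06 and 0.324 kb in FISC (limma adjusted p = 0.0933). Its paternally expressed neighbour Dlk1 had 0 and 0 kb in ASC, against 0.565 and 0.260 kb in FISC (limma adjusted p = 0.0609).

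Genes of insulin-like growth factor signalling were mostly covered, although Igf2 was not. Of 15 listed, 14 entered the window fit, with 4 called higher and 0 lower, and 13 entered the distal fit, with 5 called higher and 0 lower. Over all genes 26.0% of windows and 44.2% of distal breadths were called higher, and the medians of the list, 0.150 and 0.403 kb, stood beside 0.279 and 0.531 kb over all genes. The RNA-binding protein gene Igf2bp2 rose in both, to a window of 2.15 ± 0.314 kb in ASC, against 0.931 ± 0.0445 kb in FISC (limma adjusted p = 0.0120), and to a distal breadth of 3.66 ± 0.808 kb in ASC, against 0 kb in FISC (limma adjusted p = 0.00597). Distal breadth of Irs2, an adaptor of the receptor, rose to 14.9 ± 2.32 kb in ASC, against 7.36 ± 0.435 kb in FISC (limma adjusted p = 0.0192). That of Igfbp3, a secreted binding protein, rose to 6.06 ± 0.0820 kb in ASC, against 0.863 ± 0.344 kb in FISC (limma adjusted p = 0.00401). Igfbp6 rose in window breadth, to 1.47 ± 0.165 kb in ASC, against 0.275 ± 0.389 kb in FISC (limma adjusted p = 0.0190). Igfbp2 rose in both measures, to a window of 0.650 ± 0.137 kb in ASC, against 0 kb in FISC (limma adjusted p = 0.0124), and to a distal breadth of 2.16 ± 0.684 kb in ASC, against 0 kb in FISC (limma adjusted p = 0.0130). The receptor gene Igf1r had a window of 3.88 ± 0.0813 kb in ASC, against 3.29 ± 0.0955 kb in FISC (limma adjusted p = 0.0159). Igf2r, the clearance receptor for the growth factor, had a distal breadth of 21.1 ± 2.35 kb in ASC, against 26.8 ± 1.35 kb in FISC (limma adjusted p = 0.0910), and was chosen for mention after its values were seen.

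Of 7 other troponin genes, 5 entered the window fit, with 2 called higher and 0 lower, where 26.0% of all genes were called higher. The gene of the cardiac and embryonic troponin T, Tnnt2, rose to 1.68 ± 0.0856 kb in ASC, against 0 kb in FISC (limma adjusted p = 0.00222). In the distal fit, where 44.2% of all genes were called higher, it was the 1 of 4 called. Its distal breadth was 2.15 ± 0.404 kb in ASC and 0.190 ± 0.268 kb in FISC (limma adjusted p = 0.00911). Tnni2, in the flank of the interval, was the second called higher by window (limma adjusted p = 0.0297). Of the 2 other inhibitors of the Cdkn1c family, Cdkn1a had no peak within 2 kb of either gene end in any library. A gene without a covered end is given no distal breadth, so none could be assigned to Cdkn1a. Cdkn1b had a window of 2.84 ± 0.191 kb in ASC, against 2.56 ± 0.0552 kb in FISC, which did not pass the test (limma adjusted p = 0.180).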

How the data were processed

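H3K27ac was profiled in 4 libraries (2 ASC, 2 FISC); the 4 input libraries were not analysed here. Per the submitters' processing notes, the authors used bcl2fastq 2.19, BWA, Picard and MACS2 on build mm10; those notes give neither their order nor their settings. The deposited lists give each peak's coordinates, a score, a fold enrichment and −log10 p and q values by the authors' caller, 1 list per library, with no read counts. A shorter list may reflect lower depth as well as less acetylation.

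Lengths under peaks were computed with Python 3.11.15. Regions were merged where peaks shared at least 1 base. Window and distal breadth were fitted over all genes covered in at least 2 libraries with limma 3.58.1 (eBayes with trend, Benjamini-Hochberg, threshold 0.05), on a linear kb scale. The fit was tested on simulated data with normal noise of a common spread. Those data held no library without coverage, unlike many genes here, so they do not show how the fit behaves at such genes. The gene end with more coverage stood for the start site, because annotated promoters were given for 79.9% of coding genes, under the 80% required. Choosing that end by coverage favours covered ends.

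The genes, lists and tests were chosen with earlier results of these data known. Named genes are the 6 members, other covered genes of the interval, up to 4 called genes per list and measure by absolute difference, and the 3 nearest distal breadths per member with a mean of at least 1 kb. The covered length between Mrpl23 and H19, its division at Nctc1 and Gm33148, and gene lengths with 2 kb added were chosen after seeing the data. With 2 libraries against 2, an exact permutation test cannot go below p = 0.333. Alternatives varied the peak threshold, list length, joining of peaks, scaling, window, distal limit, flank, start sites, the gene filter, the replicate block and the libraries included. RefSeq GRCm38.p6 gave gene positions and promoter sequences.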

Additional observations from a re-analysis of the deposited data

How the results depend on the processing

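Shorter territory between Mrpl23 and H19 in ASC kept its direction under every setting tried: its difference of -9.78 kb became -6.88 kb with peaks of at least 5-fold enrichment, -11.0 kb with lists at equal covered length, -10.6 kb with peaks within 500 bases joined and -13.5 kb divided by total covered length, and ranged from -10.2 to -9.33 kb leaving out 1 library. The H19 distal difference of -7.83 kb ranged from -10.1 to -2.95 kb and the Tnnt3 window difference of 2.14 kb from 1.44 to 2.36 kb. Both differences belong to the contrast that chose the genes, so this range is no independent support. The causes of the changes below were not tested.

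The interval difference of -0.658 kb had no stable direction: it was 0.519 kb with −log10 q of at least 5, 6.09 kb with at least 5-fold enrichment, 10.3 kb with a flank of 100 kb, -18.1 kb at equal covered length and -22.7 kb divided by total covered length. Leaving out 1 library gave -6.71 to 5.39 kb, with 5.39 kb without ASC replicate 1 and 0.0615 kb without FISC replicate 1. The 6 ASC regions became 2 at equal covered length and 2 with peaks joined, and 8 to 12 leaving out 1 library. The 7 FISC regions became 1 with at least 5-fold enrichment, 16 at equal covered length and 12 at equal peak number, and 8 to 21 leaving out 1 library, where 1 library then stands for its condition.

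Summed over members, the window difference of 0.931 kb became -0.665 kb divided by total covered length, and 0.196 to 1.67 kb leaving out 1 library. The distal sum of -12.8 kb became -8.30 kb with at least 5-fold enrichment, -15.5 kb at equal covered length, -23.2 kb divided by total covered length and -4.05 kb with a limit of 20 kb, and -14.0 to -11.6 kb leaving out 1 library. Some uncalled member values changed sign. Lsp1 window breadth was 0.84 kb with a window of 5 kb. Mrpl23 window breadth was -0.453 to 0.0760 kb leaving out 1 library, the highest without ASC replicate 1, and 0.203 kb with a window of 1 kb. Cdkn1c window breadth was 0.0065 kb with peaks joined, and -0.530 to 0.234 kb leaving out 1 library, with 0.0855 kb without ASC replicate 1 and the highest without FISC replicate 1. Lsp1 distal breadth was 0.297 kb with at least 5-fold enrichment, 0.422 kb with a limit of 20 kb and -1.29 to 0.391 kb leaving out 1 library, the highest without ASC replicate 1 and 0.189 kb without FISC replicate 1.

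Over all genes, 3354 windows called higher became 2041 at equal covered length, 1114 divided by total covered length, 1934 with a window of 1 kb and 859 to 3252 leaving out 1 library. The 457 called lower became 268 with at least 5-fold enrichment, 1531 at equal covered length, 5073 divided by total covered length, 220 with a window of 1 kb and 56 to 334 leaving out 1 library. In distal breadth, 3274 called higher became 1124 at equal covered length and 1771 to 2343 leaving out 1 library, and 727 called lower became 321 with at least 5-fold enrichment, 1907 at equal covered length, 1458 divided by total covered length and 361 to 675 leaving out 1 library.

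With the replicate block, 3031 windows were called higher and 417 lower, and 3414 distal breadths higher and 788 lower. Deviations of same-numbered libraries correlated at -0.0078 in window and -0.0093 in distal breadth. With 2 libraries per condition this cannot show whether same-numbered libraries share more than a number, and the labels do not say. The Lsp1 window was called lower with the block, without FISC replicate 1 and divided by total covered length. The other member calls were the same with the block as without it. The H19 window was called lower at equal covered length, at equal peak number and divided by total covered length, and the Mrpl23 window divided by total covered length. So was Lsp1 distal breadth divided by total covered length (-6.28 kb), and Igf2 distal breadth with annotated start sites (-0.24 kb). Divided by total covered length, 5073 of 12907 windows and 1458 of 7403 distal breadths were called lower over all genes. Cdkn1c distal breadth was -0.669 kb without FISC replicate 2. Depth is unknown, so a missing peak sets no upper limit on acetylation.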
